A study of Mus musculus with 2 samples.

Results

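The 40 genes described here carry the Hedgehog, FGF and BMP signals of the embryonic mouse forebrain, from ligand to feedback inhibitor, and were taken by gene symbol from the 43346 gene rows of the deposited tables. All 40 symbols had a row. Of these genes, 11 belong to the Hedgehog pathway, 16 to the FGF pathway and 13 to the BMP pathway. The samples are 2 libraries of B6NCrl mouse forebrain taken on embryonic day 11.5, pooled over both sexes, and the labels name no treatment or mutation. For replicate 1, forebrains of 109 embryos were pooled, and a separate pool of 88 embryos gave replicate 2. Each library began with 1 cell-equivalent of total RNA longer than 200 nucleotides and was made by a SmartSeq protocol, in which cDNA is copied and amplified before sequencing. The labels call the assay single-cell RNA-seq, but the RNA came from pooled tissue, so each library is 1 bulk sample. In such a sample, fewer cells of a type and less RNA per cell cannot be told apart. An amplified library from so little RNA can also miss a gene, so a lack of reads need not mean absence from the pool.

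Hedgehog ligands bind Ptch1 and so release Smo from its inhibition, which changes the Gli transcription factors from repressors into activators. FGF ligands bind receptor tyrosine kinases (Fgfr1 to Fgfr4) that drive the Ras and MAP kinase cascade, and the cascade induces its own inhibitors of the Sprouty, Spred and Dusp families. BMP ligands bind a pair of type I and type II serine/threonine kinase receptors that phosphorylate Smad1 and Smad5, which enter the nucleus with Smad4. In the early forebrain these signals pattern the tissue: Shh comes from the ventral midline, FGFs of the Fgf8 family from the anterior pole, and BMPs from the dorsal midline.

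The libraries held 27395002 expected counts on gene rows in replicate 1 and 27977544 in replicate 2, and spike-in RNA took 8.44% and 6.56% of the TPM. TPM is the number of transcripts per 1000000 transcripts and is already scaled by length, so it can be compared between genes. Detection was set at 1 TPM or more. For a gene with no reads, up to 3 counts per library were allowed, which is 0.110 counts per 1000000 (CPM) in replicate 1 and 0.107 CPM in replicate 2. All 6 forebrain markers on a fixed list were detected in both libraries. The highest of them by mean were Nr2f1, at 115 TPM in replicate 1 and 149 TPM in replicate 2, and Pax6, at 85.6 TPM in replicate 1 and 30.1 TPM in replicate 2. All 8 midbrain and hindbrain markers, Gbx2 and Hoxa2 among them, had 0 counts in both. Of 7 endothelial markers 4 were detected in both, of 5 blood markers 4, and of 5 myeloid markers 2. Blood was led by the embryonic globins Hbb-y (12348 TPM in replicate 1, 16181 TPM in replicate 2) and Hba-x (4019 TPM in replicate 1, 4454 TPM in replicate 2). Endothelium was led by Esam (44.8 TPM in replicate 1, 47.3 TPM in replicate 2) and Egfl7 (31.6 TPM in replicate 1, 31.5 TPM in replicate 2), and myeloid cells by Fcer1g (65.8 TPM in replicate 1, 23.3 TPM in replicate 2) and Aif1 (33.0 TPM in replicate 1, 0.12 TPM in replicate 2). Markers of vessels, blood and macrophages were thus read beside those of the forebrain.

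Of the 40 pathway genes, 15 were detected in both libraries (37.5%), 10 in one library alone and 15 in neither. Over all 43346 gene rows the share detected in both was 16.6%, and over the 21474 protein-coding rows it was 30.4%. Detection in one library alone took in 3 pathway genes for replicate 1 and 7 for replicate 2. Over all gene rows the shares were 3.97% for replicate 1 alone, 6.01% for replicate 2 alone, 9.98% for either alone and 73.4% for neither. Over protein-coding rows they were 6.30% for replicate 1 alone, 9.79% for replicate 2 alone, 16.1% for either alone and 53.5% for neither. The pathway genes had modest levels: all 40 had a mean below 100 TPM. Their summed TPM was 432 in replicate 1 and 525 in replicate 2, which is 479 ± 66.0 TPM (SD, n = 2).

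The libraries disagreed on most of the pathway genes that could be compared. A difference of 2-fold was counted on log2(TPM + 1), replicate 1 over replicate 2, for genes with a mean of at least 10 TPM, and this scale understates the change of low genes. Of the 20 pathway genes at that level, 14 differed 2-fold (70.0%), with 7 higher in replicate 1 and 7 higher in replicate 2. Among all gene rows at that level the share was 51.3%, with 24.7% higher in replicate 1 and 26.6% in replicate 2. The share was larger at low levels, for all genes too: between a mean of 10 and 20 TPM, 11 of 12 pathway genes differed 2-fold against 75.6% of all genes, and between 20 and 50 TPM, 2 of 6 against 56.1%. Between 50 and 100 TPM, 1 of 2 did, against 42.9%. Below that filter, 2 of 3 pathway genes between 1 and 5 TPM differed 2-fold, against 77.4% of all genes, and 2 of 2 between 5 and 10 TPM, against 82.0%. A stricter count took genes read in one library alone, meaning that the other library held less than 1% of the depth-scaled counts, among genes with at least 10 counts in all. This was so for 9 of 27 pathway genes (33.3%), 3 in replicate 1 and 6 in replicate 2. The background was 32.0% of all such rows, 12.5% in replicate 1 and 19.4% in replicate 2, so the pathway share was near that of all genes. With 1 group of 2 libraries no difference can be tested against replicate error. Intervals below are 95% intervals for counting error only, since without molecular identifiers several reads can stem from 1 molecule.

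**Figure D1:**
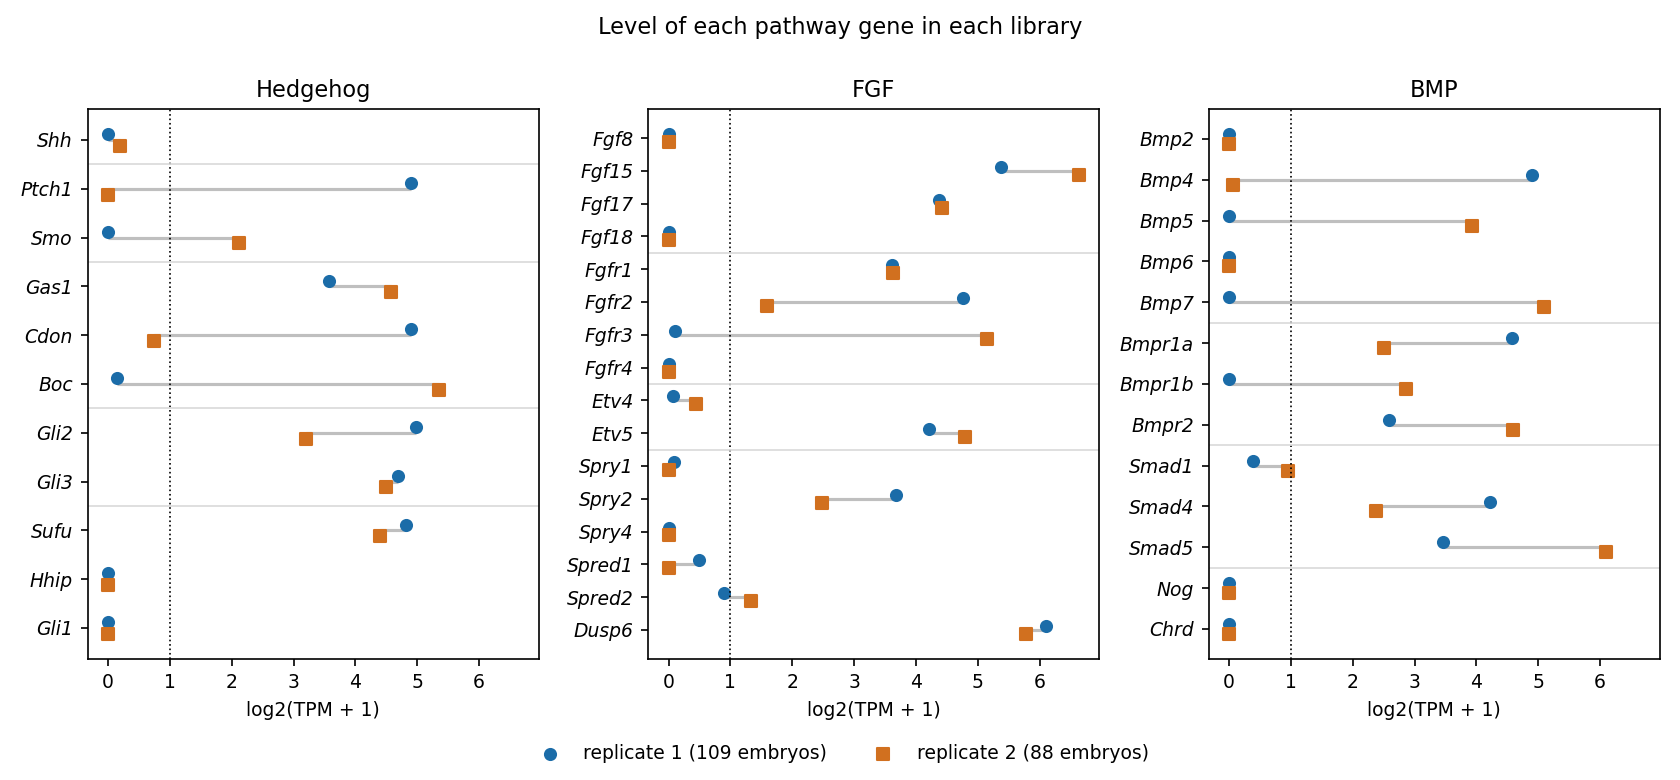
Level of each of the 40 pathway genes as log2(TPM + 1) in replicate 1 (circles) and replicate 2 (squares), ordered by role within each pathway, with a dotted line at a TPM of 1. Gli3, Fgf17, Fgfr1 and Dusp6 lay close together in the libraries, while Ptch1, Boc, Fgfr3, Bmp4 and Bmp7 were far apart.

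**Figure D2:**
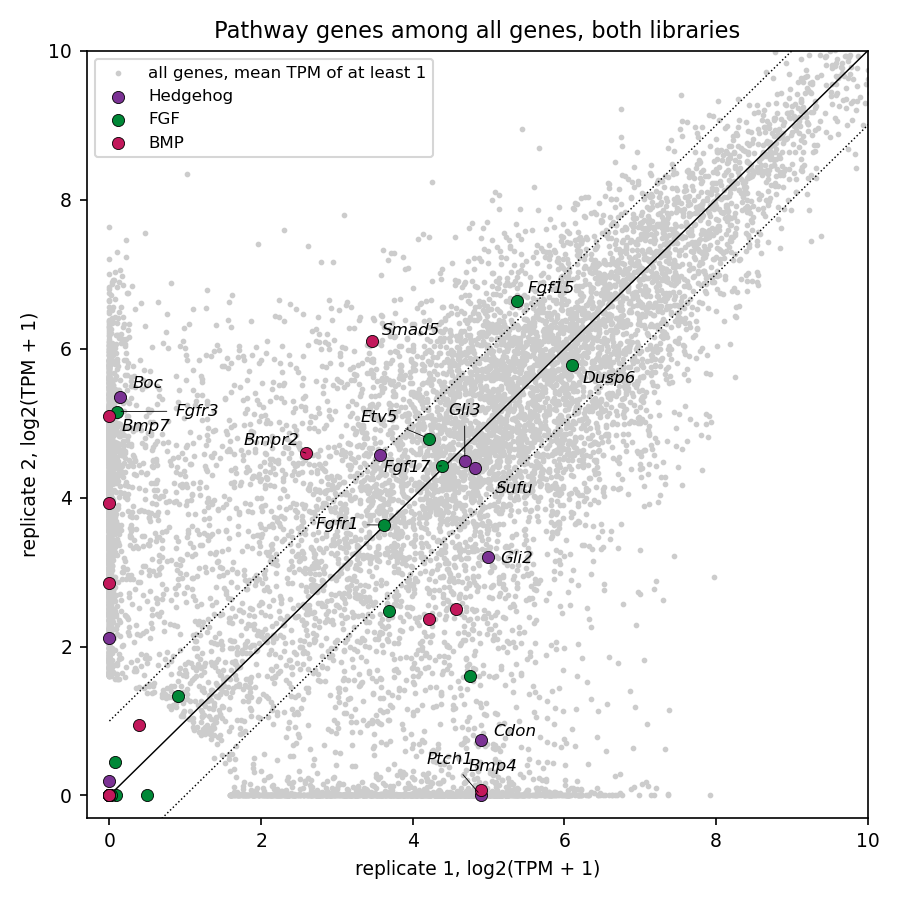
Pathway genes (coloured) among every gene row averaging 1 TPM or more, as log2(TPM + 1) in replicate 1 (x) and replicate 2 (y), with axes that stop at 10, the line of equality (solid) and the 2-fold lines on this scale (dotted). Pathway genes lie along both axes as well as near the diagonal, in the range where all genes (grey) scatter most.

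Hedgehog pathway RNA came mostly from co-receptors, Gli2, Gli3, Sufu and, in replicate 1, the receptor Ptch1, with almost no ligand. Of its 11 genes, 4 were detected in both libraries (Gas1, Gli2, Gli3 and Sufu), 4 in one library alone and 3 in neither. Shh, the ligand itself (chr5:28456815-28467256, mm10), had 0 counts in replicate 1 and 8 counts in replicate 2, or 0.14 TPM. It was below the detection threshold in both.

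The receptor and its partner were each read in a single library, and not the same one. Ptch1, the receptor and also a target gene of the pathway (chr13:63508328-63573598), had 1227 counts and 28.8 TPM in replicate 1 and 0 counts in replicate 2. This made it at least 418-fold higher in replicate 1. Its TPM there fell mostly to partial transcripts: the 809-base Ptch1-207 held 60.5% of it from 277 counts. The full-length Ptch1-201 held 4.23% from 208 counts. Most of the counts, 738, went to Ptch1-206, annotated as a target of nonsense-mediated decay, which held 34.5% of the TPM. The deposited length of Ptch1-206, 3418 bases, is not the 10383 bases of the annotation used here, so its structure may differ. Smo, which passes the signal on once Ptch1 is bound, had 0 counts in replicate 1 and 272 counts, or 3.33 TPM, in replicate 2, at least 88.8-fold higher there.

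The co-receptors Gas1, Cdon and Boc, which bind Shh beside Ptch1, were present in each library in a different mixture. Gas1 had 696 counts and 10.9 TPM in replicate 1 and 1452 counts and 22.9 TPM in replicate 2, a 2.04-fold difference (interval 1.86 to 2.24). Cdon, an immunoglobulin-superfamily receptor, had 2930 counts and 28.9 TPM in replicate 1 and 105 counts and 0.67 TPM in replicate 2. It was 28.5-fold higher in replicate 1 by depth-scaled counts (interval 23.5 to 35.0). Boc, its close relative, showed the opposite difference, with 10 counts and 0.10 TPM in replicate 1 and 3839 counts and 40.0 TPM in replicate 2, a 376-fold difference (interval 204 to 785). The pair summed to 29.0 TPM in replicate 1 and 40.7 TPM in replicate 2, and Cdon made up 99.7% of that sum in replicate 1 and 1.65% in replicate 2. The coding sequences of Cdon and Boc matched at 52.2% of aligned positions.

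By mean the Gli factors were led by Gli3, which acts mainly as the repressor that limits Hedgehog targets in the dorsal forebrain. Gli3 (chr13:15463235-15730026) had 4473 counts and 24.8 TPM in replicate 1 and 3864 counts and 21.6 TPM in replicate 2, one of the closest matches among the pathway genes. Gli2, the main primary activator, had 1663 counts and 30.7 TPM in replicate 1 and 972 counts and 8.22 TPM in replicate 2. Its 2-fold call rests on the transcript lengths: the log2 ratio was 1.78 in TPM and 0.79 in CPM. In replicate 1 only 25.2% of the Gli2 TPM fell to the full-length Gli2-201, and in replicate 2 79.3% did, although that transcript's counts were similar, at 1132 in replicate 1 and 945 in replicate 2. The remaining TPM of replicate 1 went to short transcripts with few reads, among them Gli2-205 with 165 counts and 24.0% of the TPM. Gli1, which is induced by Hedgehog activity and widely used as its readout, had 0 counts in both libraries.

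Of the inhibitors, Sufu was read in both libraries and Hhip, a decoy receptor and target gene, had 0 counts in both. Sufu, which holds Gli proteins in the cytoplasm, had 1047 counts and 27.2 TPM in replicate 1 and 1955 counts and 20.1 TPM in replicate 2. Counts and TPM thus ranked the libraries in opposite order, because the reads were assigned to transcripts of different length: the effective length was 1723 bases in replicate 1 and 4376 bases in replicate 2. Sufu-202 held 97.3% of the gene's TPM in replicate 1 and 1.68% in replicate 2, and Sufu-201 held 2.70% in replicate 1 and 98.3% in replicate 2. In the annotation these transcripts differ in their ends, with a last exon of 194 bases in Sufu-202 and 2950 bases in Sufu-201, and by 3 bases at the start of exon 7. The junction of exons 6 and 7 is shown because those 3 bases are the coding difference between the forms at this point, and they are in capitals. Exon 7 lies on the forward strand at chr19:46453159-46453315 in Sufu-202 and starts at 46453162 in Sufu-201 (mm10). The deposited tables hold no reads per junction, so the choice between the forms may rest on the 3' end alone.
Sufu-202 junction: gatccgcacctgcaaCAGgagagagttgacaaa
Sufu-201 junction: gatccgcacctgcaagagagagttgacaaa

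By role, Hedgehog receptor and transducer RNA summed to 28.8 TPM in replicate 1 and 3.33 TPM in replicate 2, co-receptors to 39.9 TPM in replicate 1 and 63.5 TPM in replicate 2, and Gli2 with Gli3 to 55.5 TPM in replicate 1 and 29.8 TPM in replicate 2. The whole pathway summed to 151 TPM in replicate 1 and 117 TPM in replicate 2, a log2 ratio of 0.37 that came to -0.019 in CPM. Among 22 other Hedgehog genes, 11 were detected in both libraries, 6 in one alone and 5 in neither, and 6 of the 11 above a mean of 10 TPM differed 2-fold (54.5%, near the 51.3% of all genes). The highest were the kinases Csnk1a1 (226 TPM in replicate 1, 186 TPM in replicate 2) and Gsk3b (55.2 TPM in replicate 1, 61.5 TPM in replicate 2), which phosphorylate Gli proteins, and Spop (21.8 TPM in replicate 1, 71.7 TPM in replicate 2), which targets them for degradation. These serve many other pathways too. The ligands Ihh and Dhh had 0 counts in both libraries. Of 8 markers of the ventral telencephalon and hypothalamus, 2 were detected in both libraries. They summed to 114 TPM in replicate 1 and 68.0 TPM in replicate 2, led by Dlx1 (46.3 TPM in replicate 1, 38.1 TPM in replicate 2) and Lhx6 (33.4 TPM in replicate 1, 0 TPM in replicate 2). Lhx6 was read in replicate 1 alone, as Ptch1 was, but Dlx2 of the same list went the other way, with 7 counts and 0.13 TPM in replicate 1 and 1196 counts and 22.7 TPM in replicate 2. The part of ventral cells in the Ptch1 difference was not tested.

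Of the 16 FGF genes, 7 were detected in both libraries, 2 in one library alone and 7 in neither, and 3 of the 7 genes above a mean of 10 TPM differed 2-fold (42.9%). That share was near the 51.3% of all genes. The FGF genes included the highest of the 40 by mean, Fgf15 and Dusp6, which ranked 2155th and 2400th by mean TPM among the 21474 protein-coding rows.

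Among FGF ligands, Fgf15 and Fgf17 were present and Fgf8 and Fgf18 had 0 counts in both libraries. Fgf15, a ligand of the endocrine FGF family that is also made by forebrain progenitors (chr7:144896531-144900953), had 1552 counts and 40.6 TPM in replicate 1 and 3729 counts and 98.3 TPM in replicate 2. It was 2.35-fold higher in replicate 2 by depth-scaled counts (interval 2.22 to 2.50). The value is less certain than the interval says, because Fgf15 overlaps the antisense gene Gm26793 and the use of strand in counting is not given in the sources used here. Fgf15 was the only pathway gene whose counts in the gene tables were not whole to within 0.005. Gm26793 held 1277 counts in replicate 1 and 125 counts in replicate 2, and together they held 2829 counts in replicate 1 and 3854 counts in replicate 2, so Fgf15 took 54.9% of the joint reads in replicate 1 and 96.8% in replicate 2. Fgf17, a member of the Fgf8 family made at the anterior pole (chr14:70636203-70642268), had 704 counts and 19.8 TPM in replicate 1 and 722 counts and 20.5 TPM in replicate 2. Its depth-scaled ratio of 1.00 had an interval of 0.904 to 1.12, so the libraries did not differ beyond counting error. Fgf8, Fgf17 and Fgf18 share 54.4% to 59.9% of aligned coding positions.

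Among the receptors, Fgfr1 was alike in the libraries, and Fgfr2 and Fgfr3 were in opposite excess. Fgfr1 (chr8:25513654-25575718) had 1173 counts and 11.3 TPM in replicate 1 and 1162 counts and 11.4 TPM in replicate 2. Fgfr2 had 1182 counts and 26.1 TPM in replicate 1 and 78 counts and 2.03 TPM in replicate 2, a 15.5-fold difference (interval 12.3 to 19.7). Fgfr3 (chr5:33721674-33737068) had 6 counts and 0.07 TPM in replicate 1 and 2538 counts and 34.7 TPM in replicate 2, a 414-fold difference (interval 190 to 1130). Fgfr2 and Fgfr3 together summed to 26.1 TPM in replicate 1 and 36.7 TPM in replicate 2, of which Fgfr2 made up 99.7% in replicate 1 and 5.53% in replicate 2. Fgfr4 had 0 counts in both. The coding sequences of Fgfr2 and Fgfr3 matched at 64.2% of aligned positions.

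Fgfr1, Fgfr2 and Fgfr3 each carry a pair of alternative exons for the last part of the third immunoglobulin domain, and the exon used sets which ligands are bound. The IIIb form of Fgfr2 is typical of epithelia and the IIIc form of mesenchyme, and ligands of the Fgf8 family act through IIIc forms. The exons of Fgfr3 are printed because the transcripts that held most of its TPM differ in them. They are given 5' to 3' on the forward strand of mm10, with capitals for runs of at least 5 bases shared by the aligned pair.
Fgfr3 IIIb: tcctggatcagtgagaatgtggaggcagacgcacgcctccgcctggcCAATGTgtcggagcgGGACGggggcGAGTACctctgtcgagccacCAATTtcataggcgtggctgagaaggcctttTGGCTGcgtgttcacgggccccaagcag
Fgfr3 IIIc: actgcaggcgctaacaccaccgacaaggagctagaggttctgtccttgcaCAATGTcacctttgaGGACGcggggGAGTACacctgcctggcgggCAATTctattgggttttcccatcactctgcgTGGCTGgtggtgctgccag

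These exons lie at chr5:33731281-33731431 (IIIb, 151 bases) and chr5:33732117-33732261 (IIIc, 145 bases) and matched at 51.9% of aligned positions. In replicate 1 all 1173 Fgfr1 counts were assigned to Fgfr1-214, the transcript with the IIIb exon. In replicate 2 that transcript held 741 counts and 63.1% of the Fgfr1 TPM, and Fgfr1-201, with the IIIc exon, held 353 counts and 28.5%. Fgfr1-214 was thus the leading transcript in both libraries. Fgfr1-214 also lacks a 267-base exon that Fgfr1-201 has, and the length of Fgfr1-201 in the deposited table is not the one in the annotation used for the exons, so its structure there may differ. The assignment therefore need not rest on the IIIb exon. For Fgfr3 in replicate 2, transcripts with the IIIc exon held 61.5% of the TPM and 1713 counts, and the transcript with the IIIb exon held 21.5% and 648 counts. Its 6 counts in replicate 1 are too few to divide. Fgfr2 in replicate 1 had 45.0% of its TPM in transcripts with the IIIc exon (503 counts) and 8.17% in those with the IIIb exon (105 counts). Another 41.8% fell to Fgfr2-217, whose first exons are annotated 2.82 Mb upstream of the rest of the gene. In replicate 2 Fgfr2 had 29 counts on IIIc and 49 on IIIb.

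**Figure D3:**
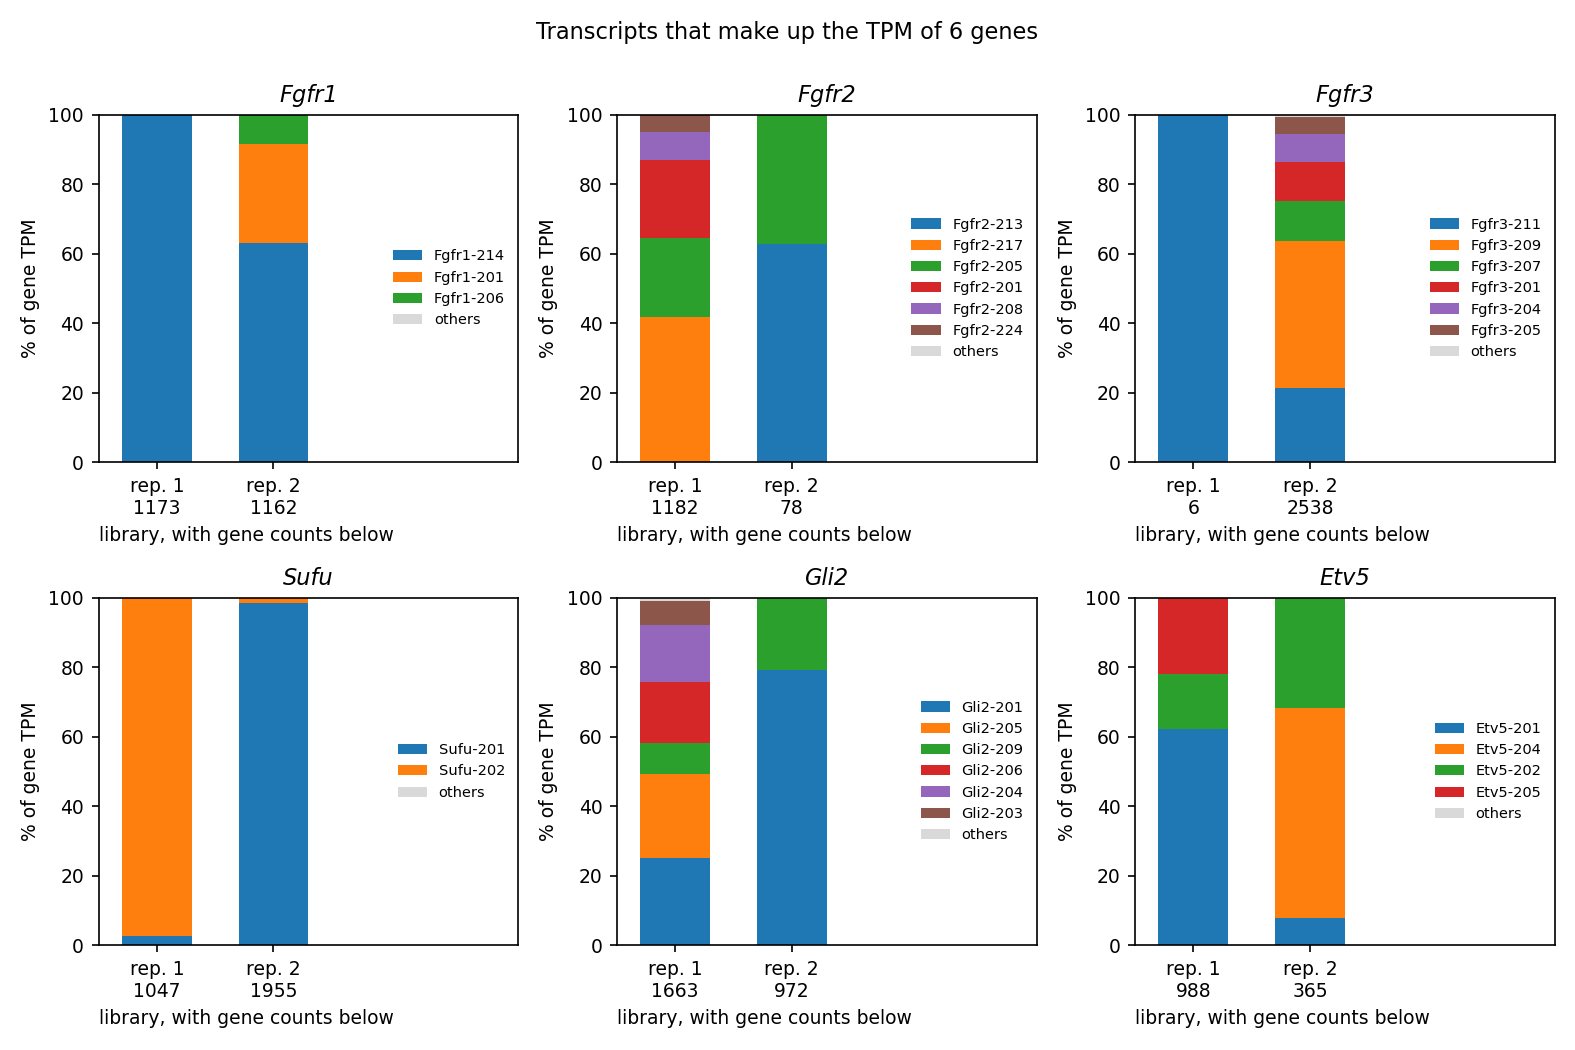
Percent of each gene's TPM assigned to its transcripts in replicate 1 and replicate 2, for the FGF receptors, Sufu, Gli2 and Etv5, with the gene's expected counts under each bar. Sufu passes from Sufu-202 in replicate 1 to Sufu-201 in replicate 2, and Fgfr1-214 leads in both libraries. Transcripts that never reach 4% are grouped as others.

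Targets and inhibitors of FGF signalling were unequal in level, with Dusp6 far above the rest. Dusp6, a phosphatase that inactivates ERK and is induced by it (chr10:99263231-99267489), had 4075 counts and 67.5 TPM in replicate 1 and 3241 counts and 54.2 TPM in replicate 2. Their ratio of 1.28 (interval 1.23 to 1.34) was among the smallest of the pathway. Spry2, an inhibitor of receptor tyrosine kinase signalling, had 527 counts and 11.9 TPM in replicate 1 and 201 counts and 4.56 TPM in replicate 2. Its relatives were near 0: Spry1 had 3 counts in replicate 1 and 0 in replicate 2, and Spry4 had 1 count in replicate 1 and 0 in replicate 2. The Spred genes, which block activation of Raf, were also low. Spred1 had 54 counts and 0.41 TPM in replicate 1 and 0 counts in replicate 2, and Spred2 had 85 counts and 0.87 TPM in replicate 1 and 148 counts and 1.53 TPM in replicate 2. Inhibitors as a group summed to 80.7 TPM in replicate 1 and 60.3 TPM in replicate 2, and Dusp6 made up most of either sum.

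Etv4 and Etv5, transcription factors induced by FGF, were unlike. Etv4 had 2 counts in replicate 1 and 4 in replicate 2. Etv5 had 988 counts and 17.5 TPM in replicate 1 and 365 counts and 26.7 TPM in replicate 2, so here too counts and TPM ranked the libraries in opposite order, with an effective length of 2518 bases in replicate 1 and 616 bases in replicate 2. The full-length Etv5-201 held 62.1% of its TPM in replicate 1 and 7.82% in replicate 2. A 489-base transcript, Etv5-204, held 0% in replicate 1 and 60.4% in replicate 2, from 140 counts.

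Across the 11 pathway genes with at least 5 TPM in both libraries, the leading transcript was the same for 9, of which 4 have a single transcript. The exceptions were Sufu and Etv5. Of the 7 genes with several transcripts, Bmpr2, Smad5, Gli3, Fgfr1 and Gli2 kept theirs. Gli3-201 held 100% in both libraries, and Bmpr2-201 and Smad5-201 held 100% in replicate 1 and at least 99.5% in replicate 2.

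The FGF genes summed to 196 TPM in replicate 1 and 254 TPM in replicate 2, a log2 ratio of -0.37. Their ligands gave 60.4 TPM in replicate 1 and 119 TPM in replicate 2, and their receptors 37.4 TPM in replicate 1 and 48.1 TPM in replicate 2. Of 29 other FGF genes, ligands and membrane proteins as well as the cascade below the receptors, 17 were detected in both libraries, 6 in one alone and 6 in neither, and 5 of the 17 above a mean of 10 TPM differed 2-fold (29.4%, against 51.3% of all genes). These 5 were Grb2, Sos2, Map2k2, Mapk3 and Etv1, which all act below the receptors. The highest of the list by mean were Nras, a Ras protein (125 TPM in replicate 1, 121 TPM in replicate 2), Flrt3, a membrane protein that binds FGF receptors (76.5 TPM in replicate 1, 120 TPM in replicate 2), and the kinase Araf (106 TPM in replicate 1, 78.1 TPM in replicate 2). Of the ligands on that list, Fgf2, Fgf3, Fgf9 and Fgf10 had 0 counts in both libraries. Fgf8 and Fgf17 are also made at the midbrain-hindbrain boundary. The 8 midbrain and hindbrain markers had 0 counts in both libraries, and whether any Fgf17 RNA came from the boundary was not tested.

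BMP pathway genes that differed between the libraries included ligands, receptors and Smads. Of the 13 genes, 4 were detected in both libraries (Bmpr1a, Bmpr2, Smad4 and Smad5), 4 in one alone and 5 in neither. All 6 BMP genes above a mean of 10 TPM differed 2-fold, 3 in each direction, against 51.3% of all genes at that level and 75.6% of those between 10 and 20 TPM, where 5 of the 6 lay.

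No BMP ligand was detected in both libraries. Bmp4, a ligand of the dorsal midline and of the tissues around the brain (chr14:46383520-46390669), had 1272 counts and 28.9 TPM in replicate 1 and 2 counts and 0.05 TPM in replicate 2, a 650-fold ratio whose interval ran from 179 to 5369. Bmp7 (chr2:172868012-172940321), a ligand of a second subfamily, had 0 counts in replicate 1 and 2630 counts and 33.2 TPM in replicate 2, at least 858-fold higher there. Bmp5, of the same subfamily as Bmp7, had 0 counts in replicate 1 and 939 counts and 14.2 TPM in replicate 2, at least 306-fold higher. Of the 5 ligands, replicate 1 thus had reads of Bmp4 alone, and replicate 2 had reads of Bmp5, Bmp7 and, at 2 counts, Bmp4. The sums of Bmp4 and Bmp7 were close, at 28.9 TPM in replicate 1 and 33.3 TPM in replicate 2. Bmp2 and Bmp6 had 0 counts in both. Bmp5 and Bmp7 matched at 64.4% of aligned coding positions and Bmp2 and Bmp4 at 63.7%.

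The type I receptors also differed in opposite directions, though Bmpr1a was read in both libraries. Bmpr1a (chr14:34410734-34503341) had 2987 counts and 22.8 TPM in replicate 1 and 515 counts and 4.69 TPM in replicate 2, a 5.92-fold difference (interval 5.39 to 6.52). Bmpr1b had 0 counts in replicate 1 and 666 counts and 6.24 TPM in replicate 2, at least 217-fold higher there. Of this pair replicate 1 thus had reads of Bmpr1a alone and replicate 2 had reads of both. In replicate 2 Bmpr1a made up 42.9% of their TPM. Bmpr2, the type II receptor, had 1438 counts and 5.02 TPM in replicate 1 and 6575 counts and 23.2 TPM in replicate 2, a 4.48-fold difference (interval 4.23 to 4.74).

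Of the Smads, Smad5 carried nearly all of the receptor-regulated RNA. Smad5 (chr13:56703010-56742377) had 1453 counts and 10.01 TPM in replicate 1 and 9673 counts and 67.5 TPM in replicate 2, the highest of the 13 BMP genes in that library. It was 6.52-fold higher in replicate 2 (interval 6.17 to 6.89). Smad1, which shares 76.4% of aligned coding positions with Smad5, was below 1 TPM, at 21 counts in replicate 1 and 62 counts in replicate 2. Smad4, the shared partner, differed the other way, with 1293 counts and 17.6 TPM in replicate 1 and 304 counts and 4.17 TPM in replicate 2, a 4.34-fold difference (interval 3.83 to 4.94). The secreted antagonists Nog and Chrd, which bind BMPs and block them, had 0 counts in both libraries.

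BMP genes summed to 84.6 TPM in replicate 1 and 154 TPM in replicate 2, a log2 ratio of -0.86. Ligands summed to 28.9 TPM in replicate 1 and 47.5 TPM in replicate 2, receptors to 27.8 TPM in replicate 1 and 34.2 TPM in replicate 2, and Smads to 27.9 TPM in replicate 1 and 72.6 TPM in replicate 2. Of 32 other BMP genes, 12 were detected in both libraries, 8 in one alone and 12 in neither, and 4 of the 12 above a mean of 10 TPM differed 2-fold (33.3%, against 51.3% of all genes). The highest were Id3 (164 TPM in replicate 1, 316 TPM in replicate 2) and Id2 (133 TPM in replicate 1, 85.8 TPM in replicate 2), inhibitors of basic helix-loop-helix factors and targets of BMP Smads, and the secreted protein Fstl1 (149 TPM in replicate 1, 115 TPM in replicate 2). None of these differed 2-fold. Both Id genes have other inducers as well.

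**Figure D4:**
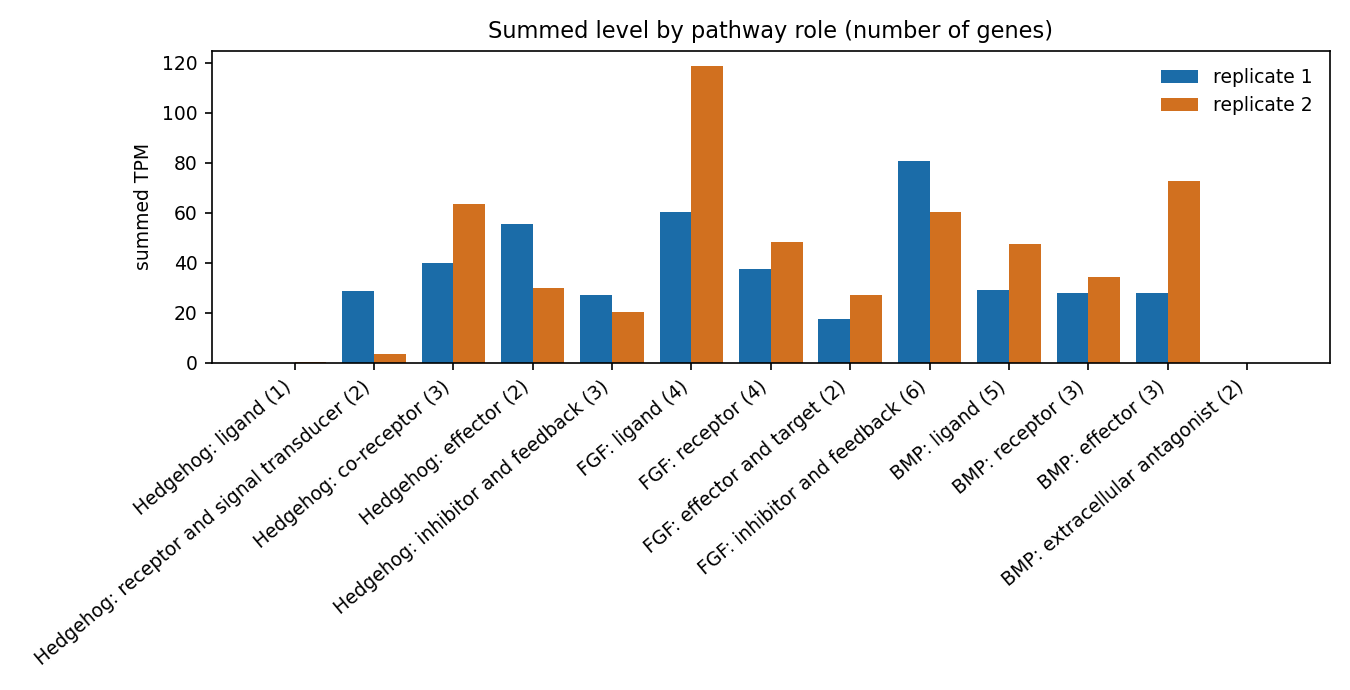
Summed TPM of the pathway genes by role in replicate 1 and replicate 2, with the number of genes in brackets. Replicate 2 was higher for FGF ligands (119 TPM, against 60.4 TPM in replicate 1) and BMP effectors (72.6 TPM, against 27.9 TPM), and replicate 1 for the Hedgehog receptor and transducer (28.8 TPM, against 3.33 TPM in replicate 2).

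BMP ligands and receptors are also made outside the neural tube, and markers of such tissue were read. Of 9 markers of mesenchyme and meninges, 5 were detected in both libraries, with sums of 462 TPM in replicate 1 and 345 TPM in replicate 2, led by Lum (169 TPM in replicate 1, 62.7 TPM in replicate 2) and Col3a1 (85.8 TPM in replicate 1, 117 TPM in replicate 2). Of 7 surface ectoderm markers, 2 were detected in both, Krt8 (73.9 TPM in replicate 1, 2.59 TPM in replicate 2) and Cdh1 (15.2 TPM in replicate 1, 10.98 TPM in replicate 2), while Epcam, Krt5 and Krt14 had 0 counts in both. That list summed to 89.0 TPM in replicate 1 and 15.5 TPM in replicate 2. Of 9 markers of the cortical hem and dorsal midline, where forebrain BMPs are made, 5 were detected in both, with sums of 194 TPM in replicate 1 and 222 TPM in replicate 2. Single hem markers were less alike than their sums: Wnt8b had 2.85 TPM in replicate 1 and 38.7 TPM in replicate 2, while Wnt3a (104 counts), Rspo2 (42 counts) and Lmx1a (33 counts) were read in replicate 1 and had 0 counts in replicate 2. The hem markers were led by Rspo3 (75.8 TPM in replicate 1, 69.7 TPM in replicate 2) and Msx1 (50.5 TPM in replicate 1, 55.1 TPM in replicate 2). Krt8, which made up most of the surface ectoderm sum in replicate 1, was thus higher in the library where Bmp4 and Fgfr2 were higher. Trp63 of the same list went the other way, with 0 counts in replicate 1 and 68 counts, or 1.83 TPM, in replicate 2, and Krt18 had 0 counts in replicate 1 and 2 in replicate 2. Whether RNA of surface tissue had a part in the Bmp4 and Fgfr2 values was not tested.

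Promoters of 27 pathway genes, 33 windows of 300 bases from RefSeq (GRCm38.p6), were searched on both strands for a Gli site and an Ets site. The Gli motif TGGGTGGTC was in 0 of the 33 windows and in 0.253% of 32851 windows of the genome. Its shorter core GGGTGGTC, which lies within it, was in 0 of 33 and 0.807%. The Ets motif CCGGAAGT was in 0 of 33 and 3.89%. At these shares 33 windows are too few for a count of 0 to set the pathway promoters apart.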

How the data were processed

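For each of the 2 libraries the authors deposited 2 tables, by gene and by transcript. Per the file headers these hold expected counts (estimated reads per gene or transcript, which need not be whole), TPM and FPKM, each of the last pair also as a posterior mean. In the deposited transcript tables each transcript also has its percent of the TPM of its gene. Posterior SDs and the limits of intervals, as deposited, were treated as a score. The level of those intervals is not stated, and for 22 of the 40 genes an interval leaves out the point TPM of a library, so they were not used as errors. Assembly mm10 and annotation M4 are named in the deposited text. Neither aligner, quantifier nor strand use is given in the sources used here.

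Of the 69691 rows, 96 ERCC spike-ins, 1 phiX row and 26248 rows with bare numbers as IDs were left out. Symbols, coordinates (1-based) and exons came by ID from GENCODE M21 on the same assembly, which matched 98.0% of gene IDs. Of the 176 transcript rows of the pathway genes, 154 have the same length there. The members and gene lists were chosen with earlier results of these data known. All 40 genes were to be named, with the 3 genes of each further pathway list that had the highest mean TPM and were detected in replicates 1 and 2 alike, and the 2 highest of each marker list. Spry3, on the FGF list, was not matched. Genes named outside this rule (undetected ligands, the 2-fold genes of the FGF list, further markers and those of the last section) were chosen after their values were seen. Some items are not reported here.

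CPM is counts per 1000000 counts on gene rows. Intervals are exact Poisson or, for ratios, Clopper-Pearson at 95%. A lower bound is taken against 3 counts. The rules for the 2-fold and one-library counts were run on simulated Poisson counts with known changes. Those counts hold no amplification error, so the run checks the calculation and not the calls made here. A planned comparison of proteins was replaced by one of coding sequences from the annotation (Biopython 1.88), aligned globally for 18 pairs. Python libraries were numpy 2.4.6, pandas 2.3.3 and scipy 1.17.1. One group of 2 libraries allows no test, so no p-value is given.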

Additional observations from a re-analysis of the deposited data

How the results depend on the processing

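The count of pathway genes detected in both libraries (15) was 17 at a TPM of at least 0.5, 11 at 5 and 16 with the posterior mean. Counting a single library gave 18 genes in replicate 1 and 22 in replicate 2. The count of 2-fold genes (14 of 20) ranged from 12 of 18 in FPKM to 18 of 40 with no filter. Each share was above that of all genes under the same setting, but no setting matched genes by level. Within each bin of level that held pathway genes, their median absolute log2 ratio was below that of all genes. It was 2.61 against 3.36 between 10 and 20 TPM, and 0.497 against 1.21 between 20 and 50 TPM. Genes read in one library alone (9 of 27) were 10 at a limit of 5% and 6 at 0.1%, where the share, 22.2%, was below the 27.2% of all genes. Of the 14 2-fold genes, Gli2 fell short in CPM and Gas1 with TPM rescaled to gene rows (log2 ratio -0.98). The summed Hedgehog level, 0.37 as log2 ratio, was -0.019 in CPM, and single genes whose ratio changed sign there were Sufu (0.41 in TPM, -0.85 in CPM) and Etv5 (-0.58 in TPM, 1.40 in CPM), both with transcripts of different length in the libraries, besides Fgfr1, which was near 0 in either (-0.01 in TPM, 0.04 in CPM). Of 13 role sums 6 moved in CPM, among them the Hedgehog inhibitors (0.41 in TPM, -0.85 in CPM), the FGF effectors (-0.60 in TPM, 1.39 in CPM) and the BMP ligands (-0.70 in TPM, -1.44 in CPM). No 2-fold call changed direction with another pseudocount, the posterior mean, CPM or rescaled TPM. The leading transcript was the same for 7 of 9 genes at a minimum of 10 TPM and 12 of 15 at 1 TPM. No paired analysis was possible because there is one group, and leaving out a library leaves no difference to measure. Genes under 20 TPM are where the libraries limit the result most: there 11 of 12 pathway genes with a mean of at least 10 TPM differed 2-fold, so a level or an absence read from one library was often not repeated in the other.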

Other observations

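Of the Id and Msx genes, which are BMP targets, Id4, Msx1 and Msx2 were measured alike, and Id1, Id2 and Id3 less so. The ligands and receptors averaging at least 10 TPM were further apart, but these groups differ in level. Id4, Msx1 and Msx2 were singled out after their values were seen and averaged 33.9 to 52.8 TPM. The ligands and receptors averaging at least 10 TPM (Bmp4, Bmp7, Bmpr1a and Bmpr2) lay at 13.7 to 16.6 TPM. Of all genes, 75.6% differed 2-fold between 10 and 20 TPM, 56.1% between 20 and 50 TPM and 42.9% between 50 and 100 TPM. Id4 had 49.8 TPM in replicate 1 and 50.8 TPM in replicate 2, Msx1 had 50.5 TPM in replicate 1 and 55.1 TPM in replicate 2, and Msx2 had 33.2 TPM in replicate 1 and 34.7 TPM in replicate 2. Id1 was less alike, at 43.6 TPM in replicate 1 and 77.9 TPM in replicate 2. So were Id2 (133 TPM in replicate 1, 85.8 TPM in replicate 2) and Id3 (164 TPM in replicate 1, 316 TPM in replicate 2). Msx1 is also on the list of dorsal midline markers. The inhibitory Smads had almost no reads: Smad6 had 0 counts in both libraries, and Smad7 had 1 count in replicate 1 and 0 in replicate 2.

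Some other inhibitors of BMP signalling were read in replicate 2 alone. Of 21 other BMP genes with at least 10 counts, 9 were read in one library alone (42.9%, against 32.0% of all such genes). These 9 were 2 in replicate 1 and 7 in replicate 2. Bambi, a decoy receptor, had 0 counts in replicate 1 and 887 counts, or 8.09 TPM, in replicate 2. Fst, which binds activin and BMPs, had 0 counts in replicate 1 and 750 counts, or 15.1 TPM, in replicate 2. Grem1, a secreted antagonist, had 0 counts in replicate 1 and 594 counts, or 6.61 TPM, in replicate 2. Bmper, a secreted BMP-binding protein, was the reverse, with 842 counts and 10.2 TPM in replicate 1 and 1 count in replicate 2.

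Of 23 other FGF genes with at least 10 counts, 3 were read in one library alone (13%, against 32.0% of all such genes). Sos2 and Mapk3 of the cascade were among these 3. Sos2, an exchange factor for Ras, had 0 counts in replicate 1 and 2362 counts in replicate 2, while Sos1 had 2151 counts in replicate 1 and 387 counts in replicate 2. Mapk3, the kinase ERK1, had 278 counts in replicate 1 and 0 in replicate 2.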
